A study of Mus musculus with 12 samples.

Results

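The transcriptional effect of PERK loss in alloreactive T cells was examined in 6 of the 12 bulk RNA-Seq libraries of the series, 3 from PERK-cKO and 3 from WT T cells, all after allogeneic stimulation. They were chosen by their labels alone, which give the tissue as spleen, the cell type as T cells, the genotype as PERK-KO or WT and the treatment as Allo stimulation. PERK-cKO mice were on the B6 background and came from crossing PERK fl/fl mice with CD4-Cre mice, a driver that deletes in T cells from the thymus onward, so other cell types of these mice keep the gene. Both genotypes had spent 4 days in culture with allogeneic APCs (antigen-presenting cells). The strain of the APCs used for RNA-Seq, the age of the mice, whether the control mice carried CD4-Cre or the floxed allele, and whether T cells were separated from APCs before RNA extraction are not given in the sources used here. Nothing in the labels states that the 3 libraries of a genotype came from separate mice, so p-values measure the spread between these libraries, which may be technical.

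PERK, encoded by Eif2ak3, is a sensor kinase in the membrane of the endoplasmic reticulum (ER). When unfolded proteins accumulate it phosphorylates eIF2alpha, which lowers general translation and favours translation of the transcription factor ATF4, and ATF4 switches on genes for amino acid supply, redox balance and further stress signalling. This branch works beside those of IRE1/XBP1 and ATF6, which expand ER chaperones and ER-associated degradation (ERAD), the route by which misfolded ER proteins reach the proteasome. T cells that recognise foreign MHC divide rapidly and secrete cytokines, which loads the ER.

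Counts were read per gene by position. The deposited table lists exon positions of the mouse build GRCm39, whereas the processing notes name mm10 (GRCm38), so each entry was laid, as printed, on GRCm38 gene models and counted toward a gene where it overlay exons of that gene alone. These are called placed counts, and levels are given as placed CPM, the usual CPM unit computed on placed counts after TMM scaling between libraries. The 6 libraries held 3132702 to 4572791 counts in total and 1568830 to 2281544 placed counts. A gene is therefore often read from part of its exons (median 465 bp), levels are not comparable between genes, and a gene without counts may only lack a placed entry. No value is given here for Ifng, Tnf, Csf2, Gzmb, Foxp3, Tbx21, Cxcr3, Il17a, Ddit3, Nfe2l2, Syvn1 and Erlec1, none of which had a placed entry. One group stood apart from the rest of the series. Y-linked genes had 3335, 3726 and 4716 counts in the WT allogeneic libraries and 0 in each of the other 9 libraries, so the sex of the cells sampled and the genotype cannot be told apart in this comparison. The labels give no sex, and whether the libraries of this group carry the right labels was not tested.

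PERK-cKO libraries differed from WT libraries in a large share of the genes read. By edgeR's quasi-likelihood test, 1384 of 4097 genes had a Benjamini-Hochberg adjusted p under 0.05 (33.8%), with 767 higher (18.7%) and 617 lower (15.1%) in PERK-cKO. Without Y-linked and mitochondrial genes the count was 1373. The values of the genotypes did not overlap for 44.5% of genes. Large changes were mostly increases, since 480 called genes rose and 89 fell by more than 1 on the log2 scale, and 162 rose and 9 fell by more than 3. Over all tested genes the log2 fold change had a median of −0.02. These directions are relative to all placed genes. When the libraries were instead scaled to a list of T cell markers, that median moved to 0.33 and 90.5% of 1737 called genes were higher, against 55.4% of the called genes above. That scaling called 1572 of the 4097 genes higher and 165 lower, which is the background for the list counts given with it below.

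Eif2ak3 itself, the deleted gene, had 155, 140 and 121 placed counts in the PERK-cKO libraries and 169, 167 and 173 in the WT libraries. In placed CPM this was 65.3, 69.2 and 72.6 against 104, 96.3 and 89.7, without overlap. The fall of 0.49 on the log2 scale (SE 0.145, edgeR adjusted p = 0.00718) left most of the signal in place. The counts came from stretches of 326 bp and 237 bp, and whether the floxed part of the gene lies under them is not given in the sources used here, so whether these counts measure the deletion is not known. With T cell marker scaling the change of Eif2ak3 did not pass the test.

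Interferon-stimulated genes, which cells switch on through STAT and IRF factors after interferon binding, were mostly higher in the PERK-cKO libraries and none was called lower. Of 113 listed genes, 41 had a placed entry and 38 were tested. Of these, 26 were called higher (68.4%) and 0 lower, beside 18.7% and 15.1% of all genes, and the median log2 fold change was 0.76. DESeq2 also called 26 higher and 0 lower, and with T cell marker scaling the counts were 32 and 0. Of the 30 members with at least 10 counts in each library, 23 were called higher and 0 lower. Markers of macrophages and basophils were higher in the same libraries (values below), and the part of other cells in these changes was not tested. The list includes several clusters of near-identical copies (Slfn, Ifi200, Trim30 and Oas families), whose reads could be split between copies in counting.

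Interferon-responsive promoters often carry the interferon-stimulated response element, searched here as a pair of GAAA half-sites with 2 bases of any kind between them on both strands of the 250 bases before each gene's start (RefSeq, GRCm38.p6). Of the 31 tested members with a promoter sequence, 18 held it, against 2.98% of 32851 promoters and 3.63% of 2947 tested genes. The match did not follow the calls within the list, since it was found in 12 of 23 members called higher and in 6 of the other 8. The stretches below lie within those 250 bases and run 5′ to 3′ on the gene's strand, with the match in capitals, for the 3 members with the largest fitted increases and for Trim12c, a neighbour of Trim30d that was not called. They lie at chr7:104507850-104507950 (Trim30d), chr7:106644739-106644868 (Gm1966), chr1:173599276-173599405 (Ifi213) and chr7:104353350-104353438 (Trim12c), all on the minus strand. The RefSeq start of Gm1966 lies outside the span GENCODE gives this gene, an unprocessed pseudogene there.
Trim30d: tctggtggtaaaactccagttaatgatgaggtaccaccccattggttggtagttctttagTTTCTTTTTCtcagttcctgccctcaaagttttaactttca
Gm1966: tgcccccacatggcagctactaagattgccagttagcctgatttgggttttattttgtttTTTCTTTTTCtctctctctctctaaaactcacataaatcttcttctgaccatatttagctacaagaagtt
Ifi213: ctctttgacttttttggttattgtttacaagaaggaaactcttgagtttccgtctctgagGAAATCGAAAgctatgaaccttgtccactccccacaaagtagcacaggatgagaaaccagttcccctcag
Trim12c: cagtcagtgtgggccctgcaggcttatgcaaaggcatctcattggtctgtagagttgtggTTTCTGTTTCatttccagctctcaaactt

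Gm1966 had 1135, 1352 and 1192 placed CPM in PERK-cKO against 11.1, 14.4 and 8.81 in WT libraries. All PERK-cKO libraries were far above all WT libraries, and the log2 fold change was 6.74 (SE 0.136, edgeR adjusted p = 8.52e-33). Trim30d, a TRIM protein of an interferon-inducible cluster, had 624, 601 and 410 placed counts in PERK-cKO and 0 in each WT library, at least 157-fold higher when 3 counts per library are allowed. It was not a silent gene elsewhere in the series, with 142 to 297 counts in the 6 polyclonal libraries. Ifi213, of the Ifi200 family, had 102, 108 and 86 counts against 0, 2 and 1, at least 28.8-fold higher.

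Oasl2, a 2′-5′-oligoadenylate synthetase-like antiviral protein, had 229, 233 and 224 placed CPM in PERK-cKO and 44.4, 39.8 and 42.5 in WT libraries, a log2 fold change of 2.44 (SE 0.134, edgeR adjusted p = 1.64e-18) with no overlap. Oas2, whose product makes the messenger that activates RNase L, rose by 2.52 on the log2 scale, and Slfn4 by 4.43, from 2.07 to 7.41 placed CPM in WT to 78.7 to 112 in PERK-cKO libraries. The most abundant members not called were Ifi203, at 492, 491 and 540 placed CPM in PERK-cKO and 579, 520 and 561 in WT libraries, Gbp4, at 202, 239 and 229 against 192, 179 and 193, and Phf11b. Not every member passed the test, and Ifi203 passed the test as higher (0.23) with T cell marker scaling.

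MHC class I genes, which display peptides to CD8 T cells, moved with them. Of 11 tested members of the class I and antigen processing list, 7 were called higher and 1 lower, beside 18.7% and 15.1% of all genes, with a median of 0.68. H2-K1, a classical class I heavy chain, had 22900, 24090 and 21760 placed CPM in PERK-cKO and 13690, 13910 and 15170 in WT libraries, without overlap. Its log2 fold change was 0.68 (SE 0.0874, edgeR adjusted p = 2.69e-08). H2-Q7 and H2-Q4, non-classical heavy chains, rose by 1.24 and 0.81, H2-Q2 and H2-Q10 by 1.07 and 1.05, and Nlrc5, the transactivator of class I genes, by 0.49. Class I genes are highly similar in sequence and read pairs can be assigned to the wrong member, and the alleles carried by the APCs were not analysed here. Psmb8, an immunoproteasome subunit, was called lower at −0.23, but lost the call in 5 of 6 fits that left out a library (edgeR adjusted p up to 0.150), passing only without WT replicate 2, and turned to 0.12 with T cell marker scaling. Psmb9, its partner, was at 0.07 and not called.

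**Figure D1:**
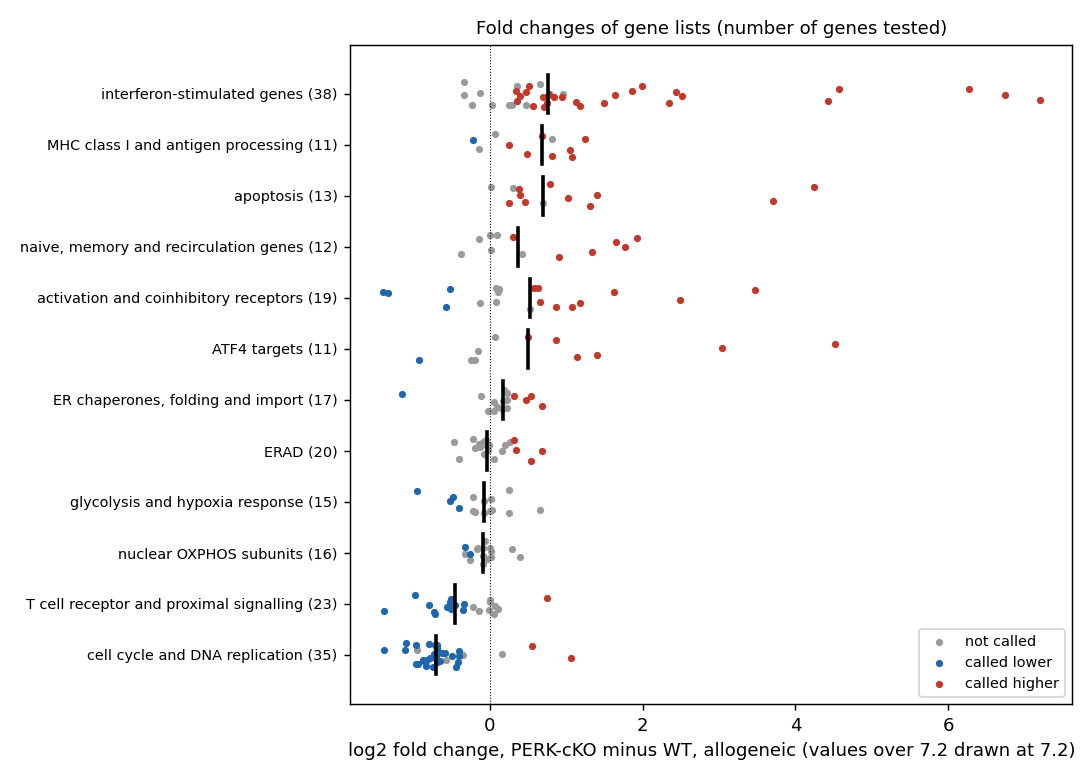
Log2 fold change of PERK-cKO minus WT T cells after allogeneic stimulation for every tested gene of 12 lists, 1 point per gene, with red for called higher, blue for called lower and grey for not called by edgeR. The black bar is the list's median, from 0.76 for interferon-stimulated genes to −0.71 for cell cycle genes, and values over 7.2 are drawn at 7.2.

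Cell cycle and DNA replication genes fell together. Of 96 listed genes, 39 had a placed entry and 35 were tested, of which 29 were called lower (82.9%, beside 15.1% of all genes) and 2 higher, with a median log2 fold change of −0.71. The list kept its direction with T cell marker scaling, with 21 lower, 2 higher and a median of −0.36, and DESeq2 called 28 lower and 2 higher. The decreases covered condensin (Ncapd2, Ncapg, Smc2 and Smc4), DNA polymerases alpha and epsilon (Pola1, Pola2 and Pole), ribonucleotide reductase (Rrm1 and Rrm2) and the kinetochore (Cenpe, Cenpf and Bub1b), groups named after the values were seen.

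Ncapd2, a condensin subunit needed to compact mitotic chromosomes, had 553, 504 and 440 placed CPM in PERK-cKO and 1041, 984 and 867 in WT libraries. Its log2 fold change was −0.95 (SE 0.0900, edgeR adjusted p = 2.38e-11), without overlap. Kif11, the kinesin that separates spindle poles, had 333, 345 and 328 against 562, 632 and 642, a change of −0.87 (SE 0.0878, edgeR adjusted p = 1.08e-10). Racgap1, which acts at the cleavage furrow, fell by 0.97 and Smc4, another condensin subunit, by 0.83. Dnmt1, which copies DNA methylation to new strands, had 489, 512 and 586 against 949, 988 and 792 placed CPM and a log2 fold change of −0.78. The values of these 5 genes did not overlap between the genotypes.

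The 2 members called higher were Cdkn1a and Cdk6. Cdkn1a encodes p21, an inhibitor of cyclin-dependent kinases, and had 3231, 3033 and 3106 placed CPM in PERK-cKO against 1459, 1615 and 1428 in WT libraries. The rise was 1.06 on the log2 scale (SE 0.0828, edgeR adjusted p = 8.44e-14), opposite to most of the list. Cdk6, a G1 kinase, rose by 0.55. Anln and Rfc1, which act in cytokinesis and replication, were among the members not called, each with 57 counts or fewer in every library, where a change of this size is hard to see.

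T cell receptor (TCR) genes were also lower. Of 23 tested members of the TCR and proximal signalling list, 13 were called lower (56.5%, beside 15.1% of all genes) and 1 higher, with a median of −0.46. This depended on scaling, since T cell marker scaling, which uses some of these genes, gave 4 lower, 5 higher and a median of −0.11. Cd5, a negative regulator of TCR signalling, had 175, 159 and 157 placed CPM in PERK-cKO and 280, 304 and 274 in WT libraries, a log2 fold change of −0.80 (SE 0.105, edgeR adjusted p = 4.52e-08). It was read from 56 bp of exon inside an entry of 3119 bp, so its counts may hold reads from outside the exons. Lck, the kinase that starts TCR signalling, had 1030, 1016 and 920 (PERK-cKO) against 1483, 1289 and 1495 (WT) placed CPM and changed by −0.52 (SE 0.0838, edgeR adjusted p = 2.36e-06).

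Sit1, an inhibitory adaptor, fell by 0.73, the calcium-regulated factors Nfatc1 and Nfatc3 by 0.72 and 0.56, the costimulatory receptor Cd27 by 0.98 and the adaptor Lat by 0.46. With T cell marker scaling, Lck, Lat and Nfatc3 did not pass the test. Thy1, a surface protein of all mouse T cells, was not called, at 4316, 3990 and 3936 placed CPM in PERK-cKO and 3837, 4112 and 3880 in WT libraries. Vav1, a guanine nucleotide exchange factor, was not called either. In bulk RNA, fewer cells of a type and less RNA per cell cannot be told apart.

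**Figure D2:**
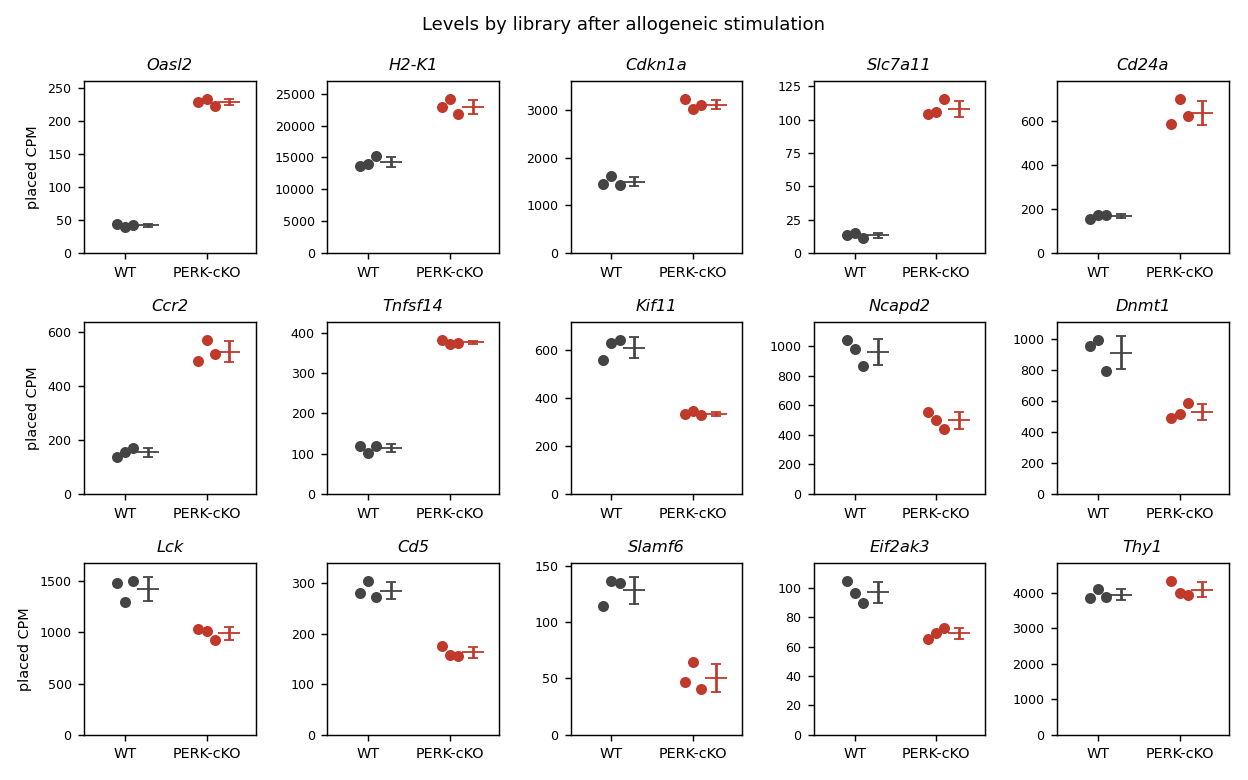
Placed CPM of 15 genes in each allogeneic library, 3 WT in grey and 3 PERK-cKO in red, with the mean and SD beside the points and axes starting at 0. The genotypes do not overlap for 14 of the genes, and Thy1, at 3837 to 4316 placed CPM, is the exception. Apart from Thy1 the genes shown were called by edgeR, so this count follows from the choice. Over all tested genes 44.5% did not overlap.

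The integrated stress response core had 5 of 17 listed genes tested. Of these, 1 was called higher and 1 lower, near the 18.7% and 15.1% of all genes. Besides Eif2ak3, Ppp1r15a (GADD34), which removes the phosphate from eIF2alpha, was called, with 61.1, 50.9 and 54.6 placed CPM in PERK-cKO against 29.6, 31.7 and 36.3 in WT libraries, higher by 0.77 (SE 0.186, edgeR adjusted p = 0.00104). Eif2ak4 (GCN2), the kinase that senses amino acid shortage, was not called at 0.43 (edgeR adjusted p = 0.0957).

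ATF4 targets were tested for 11 of 54 listed genes. Of these, 6 were called higher and 1 lower, beside 18.7% and 15.1% of all genes, with a median of 0.49. ATF4 acts with C/EBP factors on composite elements, searched here as TGATGNAA on both strands of the same 250 bases. The letters were present in 6 of the 10 tested members with a promoter sequence, in 4 of 6 called higher and 2 of 4 others, against 3.45% of all promoters and 2.41% of tested genes. Shown as above are the 3 most strongly called members that hold it and Tars, a member that holds it and was not called. They lie at chr3:50443614-50443739 (Slc7a11), chr7:126625513-126625640 (Nupr1), chr6:7693210-7693292 (Asns) and chr15:11399659-11399733 (Tars), all on the minus strand of GRCm38.p6 (RefSeq).
Slc7a11: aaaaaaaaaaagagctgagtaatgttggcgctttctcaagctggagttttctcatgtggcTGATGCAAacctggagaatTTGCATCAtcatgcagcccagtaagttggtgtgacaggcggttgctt
Nupr1: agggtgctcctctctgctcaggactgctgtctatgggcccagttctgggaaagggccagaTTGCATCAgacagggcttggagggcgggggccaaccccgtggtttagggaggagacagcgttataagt
Asns: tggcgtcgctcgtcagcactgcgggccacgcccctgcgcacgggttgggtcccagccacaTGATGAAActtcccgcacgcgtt
Tars: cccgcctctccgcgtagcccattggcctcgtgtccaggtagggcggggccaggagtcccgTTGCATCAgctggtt

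Slc7a11, the cystine importer of system xc-, had 104, 106 and 115 placed CPM in PERK-cKO and 13.58, 14.99 and 10.88 in WT libraries. The log2 fold change was 3.04 (SE 0.193, edgeR adjusted p = 1.41e-16), and its promoter held the element at a pair of sites. Its transporter partner Slc3a2 (CD98 heavy chain) rose by 0.86, from 381, 400 and 353 in WT to 690, 642 and 724 placed CPM in PERK-cKO libraries, without overlap. Gdf15, a secreted stress cytokine, had 171, 128 and 84 counts in PERK-cKO against 7, 4 and 3 in WT libraries (log2 fold change 4.52, SE 0.313, edgeR adjusted p = 2.03e-15). Nupr1, a stress-induced nuclear protein, rose by 1.40 and Asns, asparagine synthetase, by 0.49.

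The other called members were less stable. Vldlr, a lipoprotein receptor, rose by 1.14, but lost the call with DESeq2 and without PERK-cKO replicate 1 (edgeR adjusted p = 0.0948). Bcat1, which starts the breakdown of branched-chain amino acids, was called lower at −0.93 and lost the call when any of the 6 libraries was left out (edgeR adjusted p up to 0.121). Tars and Gars, tRNA synthetases, were at −0.20 and −0.25 and not called. Slc7a11, Gdf15 and Vldlr are also made by macrophages, whose markers were higher in the same libraries (values below), and the part of those cells in these changes was not tested.

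Of 17 tested ER chaperone, folding and import genes, 4 were called higher and 1 lower, beside 18.7% and 15.1% of all genes, and the median was 0.18. With T cell marker scaling 13 were higher and 1 lower, with a median of 0.53. Pdia4, a protein disulfide isomerase, had 1598, 1621 and 1589 placed CPM in PERK-cKO against 1070, 1141 and 1097 in WT libraries (log2 fold change 0.54, SE 0.0796, edgeR adjusted p = 5.42e-07). Pdia6 rose by 0.47, Ssr1, a translocon subunit, by 0.31, and Atf6, the sensor of the third branch of the unfolded protein response, by 0.68 from 69.8, 68.6 and 75.7 to 110, 122 and 110 placed CPM. Srp68, of the signal recognition particle, fell by 1.15, without overlap. Uggt1, Ostc and Erp44, the most abundant members not called, were at 0.09, 0.09 and 0.18.

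Of 20 tested ERAD genes, 4 were called higher and 0 lower, beside 18.7% and 15.1% of all genes, and the median was −0.04. With T cell marker scaling 12 were higher and 0 lower, with a median of 0.31, so the count depended on scaling. Edem1, which hands misfolded glycoproteins to degradation, was the most strongly called, with 215, 190 and 195 placed CPM in PERK-cKO and 147, 146 and 121 in WT libraries. Sel1l, the adaptor of the HRD1 ligase, had 193, 159 and 211 against 147, 154 and 144, and its change of 0.34 (edgeR adjusted p = 0.0245) lost the call with DESeq2 and in 5 of 6 fits without 1 library, passing only without PERK-cKO replicate 2. Ube2k, a ubiquitin-conjugating enzyme, and Ubxn4, a p97 cofactor, were higher by 0.68 and 0.31, and each lost the call without WT replicate 2 (edgeR adjusted p = 0.0899 and 0.103). Ube2j1, March6 and Ube2j2, membrane-bound ubiquitin enzymes with the most counts among members not called, were at −0.13, −0.03 and −0.05. DESeq2 called 2 members. In the proteasome list 1 of 8 tested genes was called lower and 0 higher, beside 15.1% and 18.7% of all genes. This was Psmb8, whose call was unstable as given above.

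Of 16 tested nuclear genes of oxidative phosphorylation, 2 were called lower and 0 higher, beside 15.1% and 18.7% of all genes, with a median of −0.09, or 0.26 with T cell marker scaling. These were Ndufv1 (complex I) at −0.32 and Sdhb (complex II) at −0.26, and each lost its call in 4 of 6 fits without 1 library, with DESeq2 and with T cell marker scaling, which turned them to 0.03 and 0.09. Among 6 genes encoded by mitochondrial DNA, mt-Nd2 was lower, at 8273, 10100 and 9084 placed CPM in PERK-cKO and 11600, 13880 and 13090 in WT libraries, a change of −0.49 (SE 0.0911, edgeR adjusted p = 3.04e-05) that did not pass the test with T cell marker scaling. The other 5 were not called, and mt-Co1, which held 9.56% to 11.03% of the placed counts of a library, was at −0.12 and, with T cell marker scaling, at 0.23.

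In glycolysis and the hypoxia response, 4 of 15 genes were lower and 0 higher, beside 15.1% and 18.7% of all genes, with a median of −0.08. T cell marker scaling gave 1 lower, 6 higher and a median of 0.27. Pdk1, a kinase that inhibits pyruvate dehydrogenase, had 46.3, 55.8 and 64.2 placed CPM in PERK-cKO against 106, 99.7 and 114 in WT libraries. Its change was −0.96 (SE 0.153, edgeR adjusted p = 2.29e-06). The phosphofructokinase subunits Pfkl and Pfkp changed by −0.52 and −0.49, and Eno1, enolase, by −0.41, and these 3 did not pass the test with T cell marker scaling. Eno1 also lost its call without PERK-cKO replicate 3 or WT replicate 2 (edgeR adjusted p up to 0.211). Hk2, the inducible hexokinase, was at 0.25 and not called. Of 9 tested NRF2 and redox genes, 4 were higher and 0 lower, beside the same shares of all genes. Besides Slc7a11 these were Me1 and Idh1, which supply NADPH, at 2.11 and 2.21, and Sod2, the mitochondrial superoxide dismutase, at 0.72.

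Of 14 sterol and fatty acid genes, 2 were called higher and 3 lower, near the 18.7% and 15.1% of all genes. Scd2, a fatty acid desaturase, fell by 0.57 and Sc5d, a late enzyme of cholesterol synthesis, by 0.68, while Abca1, which exports cholesterol, had 84.6, 106 and 87.6 placed CPM in PERK-cKO against 30.2, 46.7 and 26.4 in WT libraries (log2 fold change 1.43, SE 0.182, edgeR adjusted p = 2.77e-08). Srebf2, the master regulator of sterol synthesis, was called at −0.33 and was at 0.02 with T cell marker scaling. Of 10 cytosolic chaperone genes 4 were called lower and 0 higher, with a median of −0.11, or 0.24 with T cell marker scaling. That scaling gave 3 higher and 0 lower, and DESeq2 called 1 lower and 0 higher. Stip1, an HSP70 and HSP90 adaptor, changed by −0.50. Hsph1 changed by −0.50, Hspa4 by −0.22 and Cct2 by −0.21. These 3 lost their calls with DESeq2 and in 3 to 5 of 6 fits without 1 library. With T cell marker scaling Stip1 and Hsph1 did not pass the test, and Hspa4 and Cct2 changed sign. None of 7 cytosolic ribosomal protein genes was called by edgeR or DESeq2.

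Of 11 effector genes with placed counts 5 were tested, and 4 of these were higher (2 of 2 with at least 10 counts in each library), beside 18.7% of all genes. Tnfsf14 (LIGHT), a costimulatory TNF family ligand, had 381, 372 and 376 placed CPM in PERK-cKO and 119.1, 102.6 and 119.7 in WT libraries, a log2 fold change of 1.72 (SE 0.106, edgeR adjusted p = 6.32e-17). Gzme, a granzyme, had 220, 214 and 123 counts against 10, 3 and 18. Srgn, the proteoglycan that packs granules in cytotoxic and mast cells, rose by 0.94. Gzmd was at least 4.80-fold higher, and Gzme and Gzmd are near-identical copies whose reads can be confused.

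In the naive, memory and recirculation list, 6 of 12 genes were higher and 0 lower, beside 18.7% and 15.1% of all genes. Cd24a, a surface glycoprotein, had 586, 696 and 622 placed CPM in PERK-cKO against 156, 172 and 174 in WT libraries (log2 fold change 1.92, SE 0.0965, edgeR adjusted p = 8.25e-20). Ccr2, the receptor of inflammatory chemokines, had 491, 568 and 519 against 136, 156 and 171 (1.76 on the log2 scale), and Ly6c2 rose by 1.65 and Actn1, an actin crosslinker, by 0.91. Ccr2 and Ly6c2 are also used by monocytes, as are several below, and the part of monocytes was not tested. In the list of T cell subset factors 2 of 12 genes were higher and 1 lower, no more than the 18.7% and 15.1% of all genes, and T cell marker scaling gave 6 and 1. Nr4a3, a nuclear receptor induced by TCR signals, rose by 0.29. Zeb2, a factor of terminal effector T cells that is also high in myeloid cells, rose by 2.82, from 18.5, 28.8 and 22.3 to 162, 172 and 161 placed CPM. Ikzf1 (Ikaros), a zinc finger factor of lymphocytes, fell by 0.62, from 460, 497 and 484 to 317, 298 and 320 placed CPM.

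Activation and coinhibitory receptors were split, with 9 of 19 higher and 4 lower, beside 18.7% and 15.1% of all genes. Slamf6, a receptor of less differentiated T cells, had 47.2, 64.2 and 40.2 placed CPM in PERK-cKO against 114, 136 and 134 in WT libraries, a change of −1.34 (SE 0.157, edgeR adjusted p = 4.04e-09). Havcr2 (TIM-3), a receptor of terminally stimulated T cells and of myeloid cells, went the other way, with 249, 250 and 265 against 106, 136 and 121 (1.07, SE 0.115, edgeR adjusted p = 4.39e-10). Il2rb, a chain of the IL-2 receptor, fell by 0.58 and Tfrc, the transferrin receptor of dividing cells, by 0.52, which did not pass the test with T cell marker scaling. Klrc1 and Klrd1, which pair as an inhibitory NK receptor, rose by 2.48 and 1.18, and Il1r2, the decoy receptor of IL-1, by 3.47. Cd86, a costimulatory ligand of APCs, rose by 1.63.

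Of 13 tested apoptosis genes 10 were higher and 0 lower, beside 18.7% and 15.1% of all genes, with a median of 0.69. Mcl1, a survival factor, had 1967, 2231 and 1933 placed CPM in PERK-cKO against 1487, 1436 and 1531 in WT libraries (log2 fold change 0.46, SE 0.0824, edgeR adjusted p = 1.62e-05), and Bmf, a killer of the BH3-only group, rose by 1.02. The inflammatory caspases Casp1 and Casp4 rose by 1.40 and 1.31, Casp12, tied to ER stress in rodents, by 4.24, and Bcl2a1a, one of several near-identical survival genes, by 3.71. Genes for and against cell death thus both rose.

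Markers of other cell types were higher in the PERK-cKO libraries. The counts of markers called higher stand beside 18.7% of all genes called higher and 15.1% called lower. Tested members of the 10 such lists were called higher except the endothelial Pecam1, but some were tested only because of their counts in PERK-cKO libraries, so this tally is a description. With at least 10 counts in each library the plasma cell and neutrophil lists had no tested member. The B cell marker Blk, at 0.52, lost its call with DESeq2, without PERK-cKO replicate 2 and without WT replicate 2 (edgeR adjusted p up to 0.170). Of the macrophage and monocyte markers, 17 of 57 had a placed entry, 14 were tested and 14 called higher. Several of the 14, such as Pilrb1, Pilrb2 and Trem2, had 0 or 1 counts in each WT library and passed the filter only through PERK-cKO libraries. With at least 10 counts in each library 4 members were tested, and 4 were higher. Lyz2 had 835, 1040 and 986 placed CPM in PERK-cKO and 59.9, 44.4 and 56.0 in WT libraries, and Gpnmb, Ctss, Spi1, Cybb and Cd36 rose by 1.86 to 3.99 on the log2 scale. Summed over the 17, the level was 2615 to 2847 placed CPM against 329 to 381.5. For basophil and mast cell markers, 12 of 21 had an entry, all 9 tested were higher (7 of 7 with at least 10 counts in each library), and the sum was 5793 to 6484 against 351 to 369.7 placed CPM. Prss34, a basophil protease, had 2211, 2052 and 2005 against 99.4, 88.8 and 88.1 placed CPM, and Fcer1a, Ms4a2 and Hdc, which encode parts of the IgE receptor and the histamine-forming enzyme, rose by 4.27, 4.62 and 4.23. Csf2rb and Csf2rb2, receptor chains for IL-3 and GM-CSF with similar sequences, were at 1091 to 1213 and 1395 to 1697 placed CPM in PERK-cKO against 59.1 to 69.1 and 71.5 to 81.5 in WT libraries, while Tpsab1 was at 0 counts.

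MHC class II, dendritic, B cell and neutrophil markers showed the same direction. All 5 class II genes tested were higher, beside 18.7% of all genes, led by H2-Eb1 with 307, 256 and 312 placed CPM in PERK-cKO against 29.6, 32.9 and 45.6 in WT libraries. For dendritic cell markers, all 3 tested were higher (Itgax, Ccl22 and Irf8 by 4.82, 1.21 and 0.34), and the sum over 6 genes was 1415 to 1488 against 788 to 901 placed CPM. Ms4a1 (CD20) rose by 1.32, and the neutrophil gene Mmp8 had 307, 275 and 233 counts against 5, 4 and 6. Single tested markers of NK cells (Klrd1), plasma cells (Ighg2c) and platelets (Itga2b) were higher too. The summed stromal and endothelial markers overlapped, at 395 to 450.1 placed CPM in PERK-cKO and 372 to 419 in WT libraries. The sum over 7 T cell markers was 5937 to 6496 in PERK-cKO and 6845 to 6916 placed CPM in WT libraries, without overlap. Cd4, Cd8a and the Cd3 genes had no placed entry and Cd8b1 had 6 to 12 counts, so the labelled cell type rests on markers such as Thy1, Cd5, Lck, Zap70 and Lat. How much of any change above came from other cells was not tested.

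**Figure D3:**
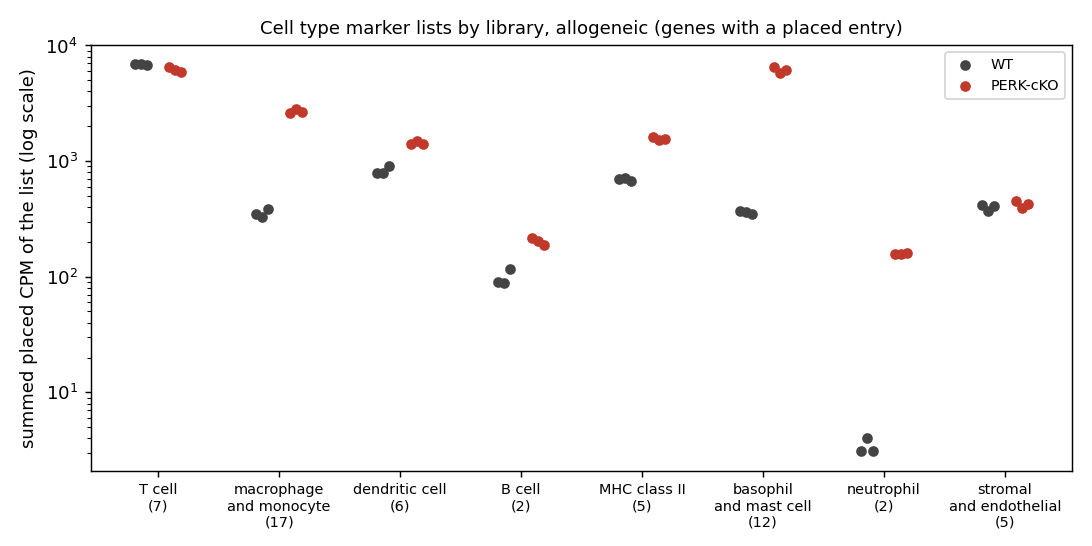
Summed placed CPM of 8 cell type marker lists in each allogeneic library on a log axis, with WT in grey and PERK-cKO in red and the number of genes with a placed entry under each name. The PERK-cKO libraries lie above the WT libraries for macrophage (2615 to 2847 against 329 to 381.5) and basophil lists (5793 to 6484 against 351 to 369.7), and slightly below for T cell markers (5937 to 6496 against 6845 to 6916).

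The largest increases by fitted log2 fold change, among genes with a mean of at least 32 placed CPM and no overlap, were Trim30d, Gm1966, Pgr, Mmp8, Tfec, Mmp13, Mgl2, Epx, Gm6522, Gda, Gm10709 and Rab44. Tfec, a transcription factor of macrophages, had 387, 490 and 415 placed CPM in PERK-cKO against 12.3, 11.5 and 11.4 in WT libraries. Mgl2, a lectin of macrophages and dendritic cells, rose by 5.04, Epx, the eosinophil peroxidase, by 5.01, and Mmp13, a collagenase, by 5.11. Pgr, the progesterone receptor, rose by 5.94. Gm10709, a predicted gene, had 1085, 899 and 827 against 30.9, 34.6 and 26.9 placed CPM.

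Among the 12 largest decreases, 4 were genes of chromosome Y (Eif2s3y, Ddx3y, Uty and Kdm5d), with 457 to 2017 counts in the WT libraries and 0 in the PERK-cKO libraries. They were at least 397-, 626-, 198- and 242-fold lower, in that order. Zan, which encodes a sperm protein, had 2, 0 and 6 counts in PERK-cKO against 175, 140 and 168 in WT libraries, and a log2 fold change of −6.04. Serpina3f, a protease inhibitor, fell from 468, 632 and 605 to 152, 141 and 140 placed CPM (−1.98, SE 0.106, edgeR adjusted p = 8.30e-19). Rcsd1, which binds actin capping protein, changed by −1.76, Ccdc141 by −1.60, Fsd1l by −1.32 and Aspm, a spindle protein of dividing cells, by −1.28. Gm4759 and Slamf6 complete the list.

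Some genes had few or no counts in 1 genotype. Such genes passed the filter only through the other genotype, which fixed their direction, so the tallies below are a description. Of the called genes, 60 had 3 counts or fewer in every WT library, with lower bounds on the fold from 3.72 to 157 (median 6.79), and 6 had 3 counts or fewer in every PERK-cKO library, 5 of them on chromosome Y and the other Col6a4. Of the 60, 37 also had 3 counts or fewer in each of the 6 polyclonal libraries, as had 2.54% of all genes tested. Another 7 (Trim30d, Gm15133, Gm36266, Gm12369, Lad1, Ccdc178 and Fndc3b, named after their values were seen) had more than 3 counts in all 6 polyclonal libraries, which include WT cells.

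Trim30d and Gm1966 lie on the same stretch of chromosome 7, and their surroundings were examined after these values were seen. From 104218793 to 106596743 (GRCm38 gene starts), 11 genes were tested, 5 higher, 2 lower and 4 not called, a stretch picked for its changes and so not to be read against the share over all genes. Next to Trim30d, Trim6 had 29 to 31 counts in PERK-cKO and 0 to 1 in WT libraries, Gm15133 had 50 to 65 against 0, and Trim30c had 20 to 38 against 2 to 10. Trim12c lies among them and had 70 to 161 against 46 to 112 counts, with overlap. Gm4759, near Gm1966, went the opposite way, with 271 to 321 counts in PERK-cKO and 1086 to 1537 in WT libraries (log2 fold change −2.38, SE 0.0996, edgeR adjusted p = 1.96e-22).

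**Figure D4:**
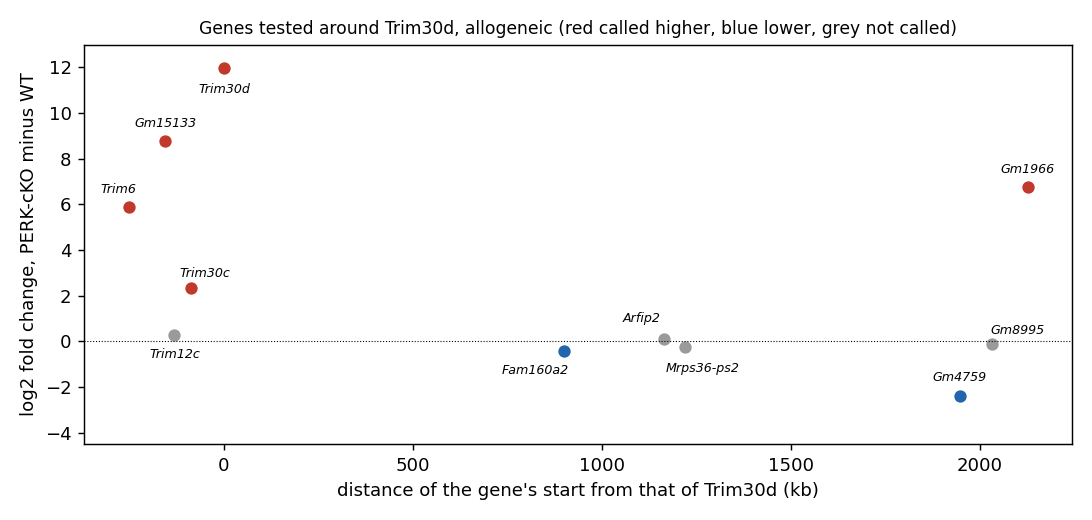
Log2 fold change of PERK-cKO minus WT for the 11 tested genes around Trim30d on chromosome 7, by distance of the gene's start from that of Trim30d in kb. Called increases (red) of Trim6, Gm15133, Trim30c, Trim30d and Gm1966 stand beside Trim12c and other genes not called (grey) and the decreases (blue) of Fam160a2 and Gm4759, and the heights of genes at 0 counts in WT are fitted values and not bounds.

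Around Zan on chromosome 5, from 136919146 to 139751282, 31 genes were tested, 9 higher, 6 lower and 16 not called. This stretch was likewise picked for its changes, and so is not to be read against the share over all genes. Pilrb1 and Pilrb2, paired activating receptors of myeloid cells with near-identical sequences, had 33 to 52 and 33 to 69 counts in PERK-cKO and 0 in WT libraries. Fam20c, a secretory pathway kinase, had 14 to 20 against 0. The genes between them, such as Cops6 and Zfp113, had counts in all 6 libraries.

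The comparison was also set beside the same genotypes after polyclonal stimulation with anti-CD3 and anti-CD28, 6 other libraries. There, 1292 of 3942 genes were called (32.8%), 661 higher (16.8%) and 631 lower. An interaction term between genotype and stimulation, fitted on all 12 libraries, was called for 1505 of 4407 genes (34.2%). Of 518 genes called in both stimulations, 183 changed in the same and 335 in the opposite direction.

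Cell cycle genes often changed in opposite directions between the stimulations. The interaction was called for 29 of the 35, and after polyclonal stimulation 17 were higher and 3 lower in PERK-cKO cells, beside 661 and 631 of all 3942 genes. Of the 20 called in both, 19 had opposite directions, beside 335 of 518 over all genes. Ncapd2 changed by 0.27 after polyclonal and −0.95 after allogeneic stimulation (interaction −1.23, SE 0.115, edgeR adjusted p = 7.13e-12), and Dnmt1 by 0.37 and −0.78 (interaction −1.17). Cdkn1a mirrored them, at −0.73 after polyclonal and 1.06 after allogeneic stimulation (interaction 1.77, SE 0.0928, edgeR adjusted p = 6.60e-20).

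Interferon-stimulated genes had an interaction call in 20 of 38, beside 34.2% of all genes. Of these 38, 28 were also tested after polyclonal stimulation. Oasl2 was at −0.13 and not called after polyclonal stimulation (interaction 2.56, SE 0.318, edgeR adjusted p = 1.05e-08), and Gm1966 was at −0.38 and called lower there (interaction 7.11). For Lck the interaction was −0.80 and for Slamf6 −1.79. Havcr2 was higher in PERK-cKO cells under both stimulations, and less so after allogeneic stimulation (interaction −1.33, SE 0.178, edgeR adjusted p = 5.63e-08). Slc7a11 and Gdf15 were not called after polyclonal stimulation, at 0.13 and 0.16, and their interactions were 2.90 and 4.34. The stimulations differ in the presence of APCs and in the sex-linked counts of the WT libraries, and may differ in length, since the labels give 3 and 4 days and the study's text 4 days for both. None of these can be told apart from the stimulation itself.

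**Figure D5:**
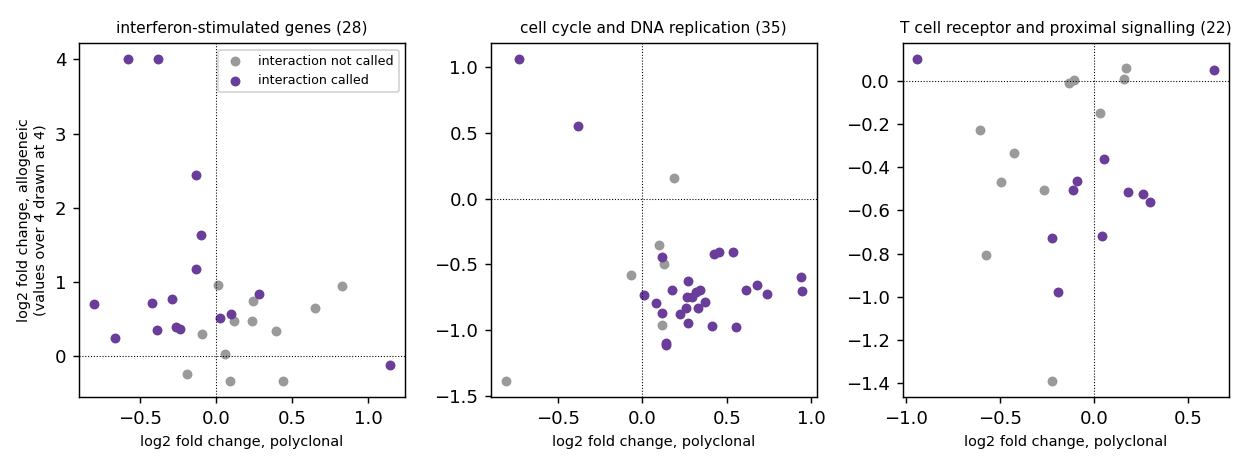
Log2 fold change of PERK-cKO minus WT after polyclonal (horizontal) and allogeneic stimulation (vertical, values over 4 drawn at 4) for the genes of 3 lists tested in both, 28 interferon-stimulated, 35 cell cycle and 22 TCR signalling genes. Purple marks a called interaction, and most cell cycle genes lie to the right of 0 and below it.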

How the data were processed

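Bulk RNA-Seq counts of 12 libraries, 3 per genotype and stimulation, were analysed, with groups from the sample labels. The values are raw counts as deposited. Read pairs on GENCODE vM27 exons had been summed per gene symbol by the authors, regardless of strand, with featureCounts 2.0.1, while the labels name build mm10. The aligner is not given in the sources used here. All 12 columns of counts belonged to these libraries. Of 53762 entries, 33927 overlay no GRCm38 exon and 13392 (50.5% of counts) were placed on 10708 genes of GENCODE M21, where its positions covered 50 bp or more of the exons of a single gene (genes of small RNAs were ignored). Of the placed genes, 78.7% had no entry under their own symbol, and placed counts can hold reads from outside the exons. Bounds and depth limits (3 counts, 1.31 to 1.91 placed CPM per allogeneic library) cover counting error only.

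Placed counts were filtered (filterByExpr), normalized by TMM and tested with edgeR 4.0.16 (glmQLFit, robust, and glmQLFTest; limma 3.58.1, R 4.3.3) at a Benjamini-Hochberg adjusted p under 0.05 over all genes, which stands for "called". DESeq2 1.42.0 was the alternative. Tests were checked on simulated counts, and figures were drawn in Python 3.11.15. Other alternatives were RLE, upper-quartile, library-size and T cell marker scaling, other filters, omission of Y-linked and mitochondrial genes, a replicate block, stricter placement, entries as listed, a log2 fold change over 1, and each library left out. Any 2 libraries of a group differed by more than sampling noise. The members and gene lists were chosen with earlier results of these data known. Named genes were taken from Eif2ak3, sex-linked genes, the 12 largest increases and 12 largest decreases (mean of at least 32 placed CPM, no overlap), up to 6 called and 3 abundant uncalled members of each list, the 10 most counted genes and genes whose products the study measured. Genes outside this rule (members of a stretch, genes with few counts in 1 genotype and further cell cycle genes and markers) were named after their values were seen. Some members of the lists are not reported here by name.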

Additional observations from a re-analysis of the deposited data

Results flagged for a closer look

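The effect of genotype differed between allogeneic and polyclonal stimulation for 1505 genes in edgeR's interaction test. All interactions given here had an edgeR adjusted p under 0.05, and a positive value means a higher log2 fold change of PERK-cKO over WT after allogeneic stimulation. It was 7.11 for Gm1966, 12.60 for Trim30d (a fitted value against 0 counts in the WT allogeneic libraries), 2.56 for Oasl2 and 0.85 for H2-K1. Among cell cycle genes it was 1.77 for Cdkn1a, −1.23 for Ncapd2, −0.999 for Kif11 and −1.17 for Dnmt1. For stress genes it was 2.90 for Slc7a11, 4.34 for Gdf15, 2.09 for Nupr1 and 3.69 for Vldlr. In T cell genes it was −0.80 for Lck, −0.76 for Ikzf1, −1.33 for Havcr2 and −1.79 for Slamf6. For homing and other genes it was 4.21 for Cd24a, 1.83 for Ccr2, 2.44 for Zeb2, −3.30 for Gm4759, 0.80 for Mcl1 and 2.49 for Abca1.

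Entries that could not be placed on 1 gene also differed. Of 4544 such entries tested under their listed symbols, edgeR called 737 higher and 558 lower in PERK-cKO (28.5% in all), and these are not assigned to any gene here.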

How the results depend on the processing

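The number of genes called moved from 1384 to 569 when a log2 fold change over 1 was also required, to 2810 of 9467 on entries as listed and to 421 of 1097 when entries had to lie at least 50% inside exons. Without single libraries it was 1179 to 1356, and 1373 to 1446 for the interaction (1505). With DESeq2 the counts were 1132 and 1314. The share higher among called genes was 50.3% with upper-quartile and 60.3% with library-size scaling. Replicate numbers did not pair the libraries, since same-numbered libraries of the genotypes deviated with correlations of 0.08, 0.05 and −0.04. A replicate block gave 1411 calls and 1479 for the interaction.

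With T cell marker scaling, the log2 fold change changed sign to 0.14 for Cct2, 0.13 for Hspa4, 0.23 for Ifi203, 0.23 for mt-Co1, 0.025 for Ndufv1, 0.12 for Psmb8, 0.092 for Sdhb, 0.0215 for Srebf2 and 0.15 for Tars. It adds about the same amount to every gene.

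Under the symbols as listed, without regard to position, the sign changed to 0.12 for Cd5, −0.035 for Cdk6, 1.16 for Dnmt1, −0.34 for H2-Q7, −0.14 for Havcr2, 0.77 for Ifi203, −0.97 for Ifi213, 0.65 for Il18r1, 0.24 for Rcsd1, 0.093 for Slamf6, 0.17 for Srp68, 0.29 for Stip1, −2.40 for Thy1, −0.30 for Trim6, −0.34 for Ubxn4, −0.025 for Uggt1 and 0.23 for Zap70. Some large increases were no longer called, such as Mgl2 (0.0006), Epx (0.07), Rab44 (0.27), Csf2rb2 (0.25), Itgax (0.33), Me1 (0.34) and Idh1 (0.41). Of macrophage markers 8 of 20 were then higher and 2 lower, and of basophil markers 3 of 7 higher and 0 lower. Of cell cycle genes 15 of 47 were lower and 8 higher. Of interferon-stimulated genes 26 of 49 were higher and 3 lower. Over all 9467 entries 1598 were higher and 1212 lower.

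Calls lost without single libraries fell on PERK-cKO replicates 2 and 3 and WT replicate 2 for Hspa4 (log2 fold change −0.19, −0.20 and −0.17), on PERK-cKO replicate 1 and WT replicates 1 and 2 for Hsph1 (−0.45, −0.39 and −0.50), on all libraries but WT replicate 3 for Cct2 (−0.24 to −0.16), on all but PERK-cKO replicate 1 and WT replicate 2 for Ndufv1 (−0.30 to −0.24) and on all but PERK-cKO replicate 2 and WT replicate 1 for Sdhb (−0.24 to −0.17). Without 1 library, 48 values of named genes lost their call, 5 gained one and 885 did neither. Depth limits small changes: genes at 3 counts or fewer allow only a bound.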
